A study of Mus musculus with 16 samples.

Results

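Ligands and receptors of the axon guidance families were followed in immortalized mouse keratinocytes with and without integrin α3β1. The members were all genes of the counts table whose symbol names an Eph receptor (Epha, Ephb), an ephrin (Efna, Efnb), a semaphorin (Sema), a plexin (Plxn), a neuropilin (Nrp), a netrin (Ntn), an Unc5 receptor, a Slit or a Robo receptor. There were 56 of them among 14474 genes, 32 ligands and 24 receptors, and all 56 passed the filter on low counts and were tested. MKα3- cells lack α3 integrin, and MKα3+ cells are the same null keratinocytes given back human α3 integrin, so both carry the loss of the mouse gene. Each line was grown on collagen-coated dishes at low calcium and received LN332 (laminin-332, a basement membrane ligand of this integrin) at 0.02 mg/mL or an equal volume of its buffer for 16 to 24 h, with 4 libraries in each of the 4 groups. Each genotype is a single cell line, so the presence of α3 integrin and any other difference between the lines cannot be told apart. The labels do not say whether replicates were separate cultures, so p-values measure only the spread between these libraries.

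Axon guidance molecules steer growing axons by attraction and repulsion, and the same molecules act on adhesion, migration and boundary formation in epithelia. Eph receptors are tyrosine kinases that bind membrane-anchored ephrins on a neighbouring cell and signal in both cells. Semaphorins are secreted or membrane-bound ligands of plexins, which act on small GTPases, and secreted class 3 semaphorins usually need a neuropilin as the binding partner. Netrins are laminin-related secreted proteins that bind Unc5 receptors among others, and Slits are secreted ligands of Robo receptors.

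The text uses CPM, the counts of a gene relative to the size of its library, scaled by TMM, a normalization for differences in composition between libraries. A member is called where limma-voom, fitted on all 14474 genes, gave a difference of more than 0.5 on the log2 scale in either direction, with a Benjamini-Hochberg adjusted p under 0.05. Fold changes are on the log2 scale, with their standard error (SE).

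The 4 members called for LN332 when both lines were averaged were *Efnb2*, *Sema7a*, *Sema4a* and *Sema4c*, all ligands, and the 250 bases before their start sites are shown because they are the members that passed the threshold in that average. The sequences are from RefSeq (GRCm38.p6), on the strand of the gene, and 48 of the 56 members had an entry. They lie at chr8:8661243-8661492 (minus strand) for *Efnb2*, chr9:57939862-57940111 (plus strand) for *Sema7a*, chr3:88461183-88461432 (minus strand) for *Sema4a* and chr1:36558382-36558631 (minus strand) for *Sema4c*. *Sema4a* had 4 promoter entries and *Sema4c* 2, of which 1 each is shown. The *Sema7a* and *Sema4c* windows lie inside the annotated spans of these genes (chr9:57939596-57962865 and chr1:36548639-36560699). The start sites used for them are therefore not the outer ends of the genes. Capitals mark matches, on either strand, to 4 short motifs: AP-1 (TGANTCA), the TEAD core (GGAATG), the GC box (GGGCGG) and the E-box (CANNTG).
Efnb2: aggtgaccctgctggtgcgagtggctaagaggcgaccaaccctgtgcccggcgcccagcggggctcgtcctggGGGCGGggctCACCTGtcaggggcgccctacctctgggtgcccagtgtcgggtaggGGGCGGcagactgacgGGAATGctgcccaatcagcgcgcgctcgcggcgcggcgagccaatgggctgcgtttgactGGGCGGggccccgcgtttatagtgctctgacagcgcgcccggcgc
Sema7a: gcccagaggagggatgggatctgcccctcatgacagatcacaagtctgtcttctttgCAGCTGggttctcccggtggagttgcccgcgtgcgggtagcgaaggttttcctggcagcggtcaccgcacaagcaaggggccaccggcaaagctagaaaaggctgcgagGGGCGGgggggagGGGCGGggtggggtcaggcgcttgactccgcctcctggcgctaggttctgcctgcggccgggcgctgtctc
Sema4a: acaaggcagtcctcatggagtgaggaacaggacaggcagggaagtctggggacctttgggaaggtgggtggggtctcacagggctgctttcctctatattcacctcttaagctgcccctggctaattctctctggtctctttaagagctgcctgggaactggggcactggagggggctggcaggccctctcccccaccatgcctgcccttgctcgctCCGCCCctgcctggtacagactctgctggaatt
Sema4c: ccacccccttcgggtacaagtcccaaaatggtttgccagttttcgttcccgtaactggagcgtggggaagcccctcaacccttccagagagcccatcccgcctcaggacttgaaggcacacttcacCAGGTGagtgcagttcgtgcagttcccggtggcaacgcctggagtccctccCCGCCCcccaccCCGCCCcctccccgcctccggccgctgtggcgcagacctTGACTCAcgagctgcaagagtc
The *Efnb2* window held 1 TEAD core, 3 GC boxes and 1 E-box. The *Sema7a* window held 2 GC boxes and 1 E-box. The *Sema4a* window held 1 GC box. The *Sema4c* window held 1 AP-1 match starting 22 bases before the start site, 2 GC boxes and 1 E-box. Of 32851 promoter windows of this length, 6.75% held the AP-1 letters, 12.6% the TEAD core, 32.7% the GC box and 66.2% the E-box. Of the 61 windows of members, 3 held the AP-1 letters, 7 the TEAD core, 48 the GC box and 26 the E-box. A GC box was thus common among the member windows, which covered 48 of the 56 members. A match describes letters only, and binding was not measured.

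Libraries held 21735708 to 29338370 counts, with a median of 27036993. The mouse *Itga3* counts gave 211 to 317 CPM in all 16 libraries and did not tell the lines apart, with a log2 fold change of 0.09 between the lines in vehicle (limma-voom, adjusted p = 0.694); these are gene-level counts of the mouse gene and the restored integrin is human, so they check no label. All 7 keratinocyte markers were in the table, with a summed level of 7849 to 17912 CPM. Of 5 neuron markers 1, *Tubb3*, was among the tabulated genes (6.95 to 29.8 CPM). Of the 4 immune markers 3 were tabulated (summed to 12.5 to 69.1 CPM), and among them *Adgre1* was at 34.9 and 34.5 CPM in replicates 3 and 4 of MKα3+ cells in vehicle and at 35.2 CPM in replicate 4 of MKα3+ cells in LN332, against 0.106 to 10.4 CPM in the other 13 libraries. The 4 tabulated of 6 fibroblast markers summed to 11.4 to 39.4 CPM, the 2 of 5 melanocyte markers to 4.70 to 10.6 CPM and the 4 of 4 endothelial markers to 3.33 to 6.45 CPM. The part of these cells in the results below was not tested.

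In 3 libraries genes of low level were raised as a group. The 19 members with a mean under 2 CPM summed to 32.7 CPM in replicate 4 of MKα3- cells in vehicle, against 14.7 to 19.7 CPM in the other 3 libraries of that group. Their sum was 31.3 CPM in replicate 1 of MKα3- cells in LN332, against 11.98 to 15.2 CPM, and 28.3 CPM in replicate 1 of MKα3+ cells in LN332, against 12.2 to 15.8 CPM. Over all 2545 genes with a mean under 2 CPM the same 3 libraries had 3098 to 3350 CPM and the other 13 had 2097 to 2671 CPM. Results on members of low level are therefore also given without these 3 libraries.

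**Figure D1:**
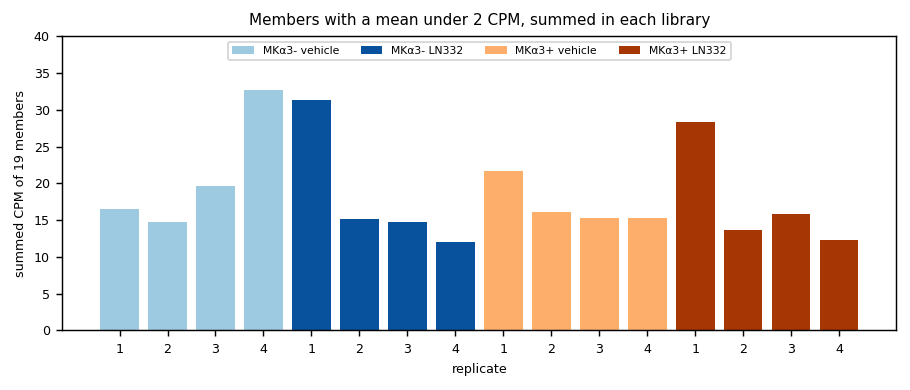
Summed CPM of the 19 members with a mean under 2 CPM (y axis) in each of the 16 libraries (x axis, replicate number; colours are the 4 groups). The bar of 1 library stands above the rest of its group in MKα3- vehicle (32.7), MKα3- LN332 (31.3) and MKα3+ LN332 (28.3).

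To compare genes with each other, CPM was divided by exonic length. On that scale the highest member in the vehicle-treated MKα3- cells was *Epha2*, the main Eph receptor of epidermis, at 111 ± 13.3 CPM per kb (SD, n = 4). Next came *Plxnb2*, a receptor for class 4 semaphorins, at 91.7 ± 12.4 CPM per kb and *Sema3c*, a secreted semaphorin, at 65.2 ± 12.6 CPM per kb. *Nrp2* (41.2 ± 7.12) and *Nrp1* (40.5 ± 1.41), the semaphorin co-receptors, followed and differed by less than their spread. *Unc5b* was at 33.6 ± 7.99 CPM per kb, *Plxna1* at 32.4 ± 5.76 and *Ephb3* at 27.9 ± 1.45, and these neighbours also lay within their spread. At the low end were *Epha6* (0.0244 ± 0.0235 CPM per kb), *Epha7* (0.0412 ± 0.0306) and *Sema3a* (0.0587 ± 0.0115). The members with the 5 largest fold changes between the lines in vehicle, *Epha6*, *Ephb2*, *Ntn1*, *Epha7* and *Sema6a*, were all at this low end in MKα3- cells, with *Ntn1* the highest of them at 0.138 ± 0.0935 CPM per kb.

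**Figure D2:**
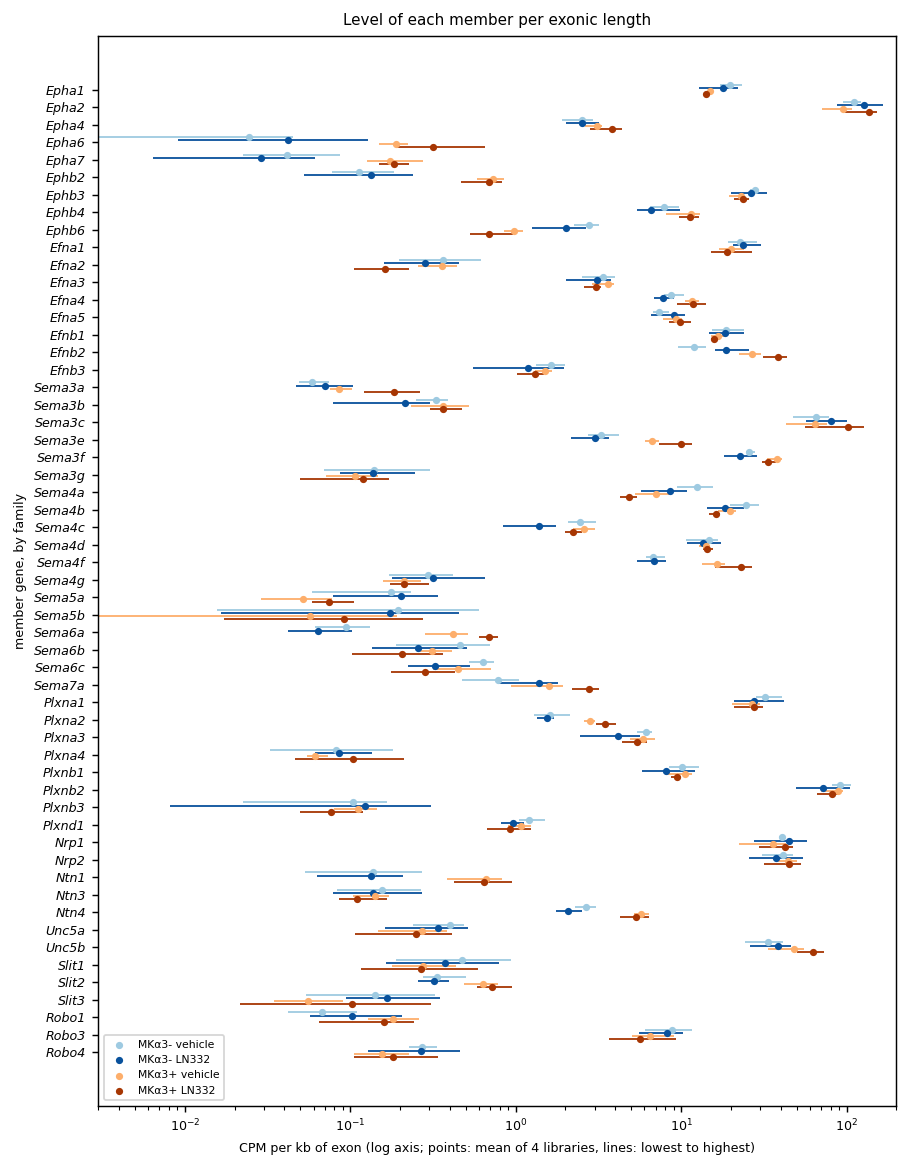
Level of each of the 56 members in CPM per kb of exon (log x axis), with the mean (point) and the lowest to highest library (line) of 4 libraries in each of the 4 groups; a line that reaches the left edge includes a library at 0. *Epha2*, *Plxnb2* and *Sema3c* lie highest, and *Epha6*, *Epha7*, *Ephb2*, *Sema6a* and *Ntn1* are low in both MKα3- groups and higher in both MKα3+ groups.

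The first question was which members differ between the lines without added ligand. In vehicle 18 of 56 members were called (32.1%), against 18.5% of all genes tested, 15 higher in MKα3+ cells (10.9% of all genes) and 3 lower (7.56%). In bulk RNA, fewer cells with a transcript and less of it per cell cannot be told apart. The median log2 fold change was -0.03 over the members and 0.0056 over all genes. In LN332 21 members were called (37.5%), against 20.6% of all genes, 19 higher (11.7% of all genes) and 2 lower (8.92%), and the median was 0.11 over the members and 0.0062 over all genes. The line differences in vehicle and in LN332 were set against each other in the interaction given further on, which called 0 members. The groups did not overlap in CPM for 18 members in vehicle, against 32.9% of all genes, 14 higher (17.2%) and 4 lower (15.7%). In LN332 there were 19, against 26.5%, 17 higher (13.6%) and 2 lower (12.9%). Without the 3 libraries raised in low genes, 18 members were called in vehicle, 15 higher and 3 lower, and 24 in LN332, 19 higher and 5 lower. Over all 14474 genes that fit called 2938 and 3194, against 2676 and 2987 in the main fit. Weighting libraries by their quality gave 24 in vehicle, 16 higher and 8 lower, and 24 in LN332, 19 higher and 5 lower. Over all genes the weights called 3249 in vehicle and 3331 in LN332. The members the weights added as lower were *Robo3*, *Robo4*, *Sema5b*, *Sema6c* and *Slit3* in vehicle and *Robo3*, *Robo4* and *Sema5a* in LN332. By system, 5 of 9 Eph receptors, 1 of 8 ephrins, 7 of 18 semaphorins, 1 of 10 plexins and neuropilins and 4 of 11 netrins, Slits and their receptors were called in vehicle. In LN332 these counts were 6, 2, 8, 1 and 4. The vehicle and LN332 comparisons share no library, but both compare the same pair of lines.

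**Figure D3:**
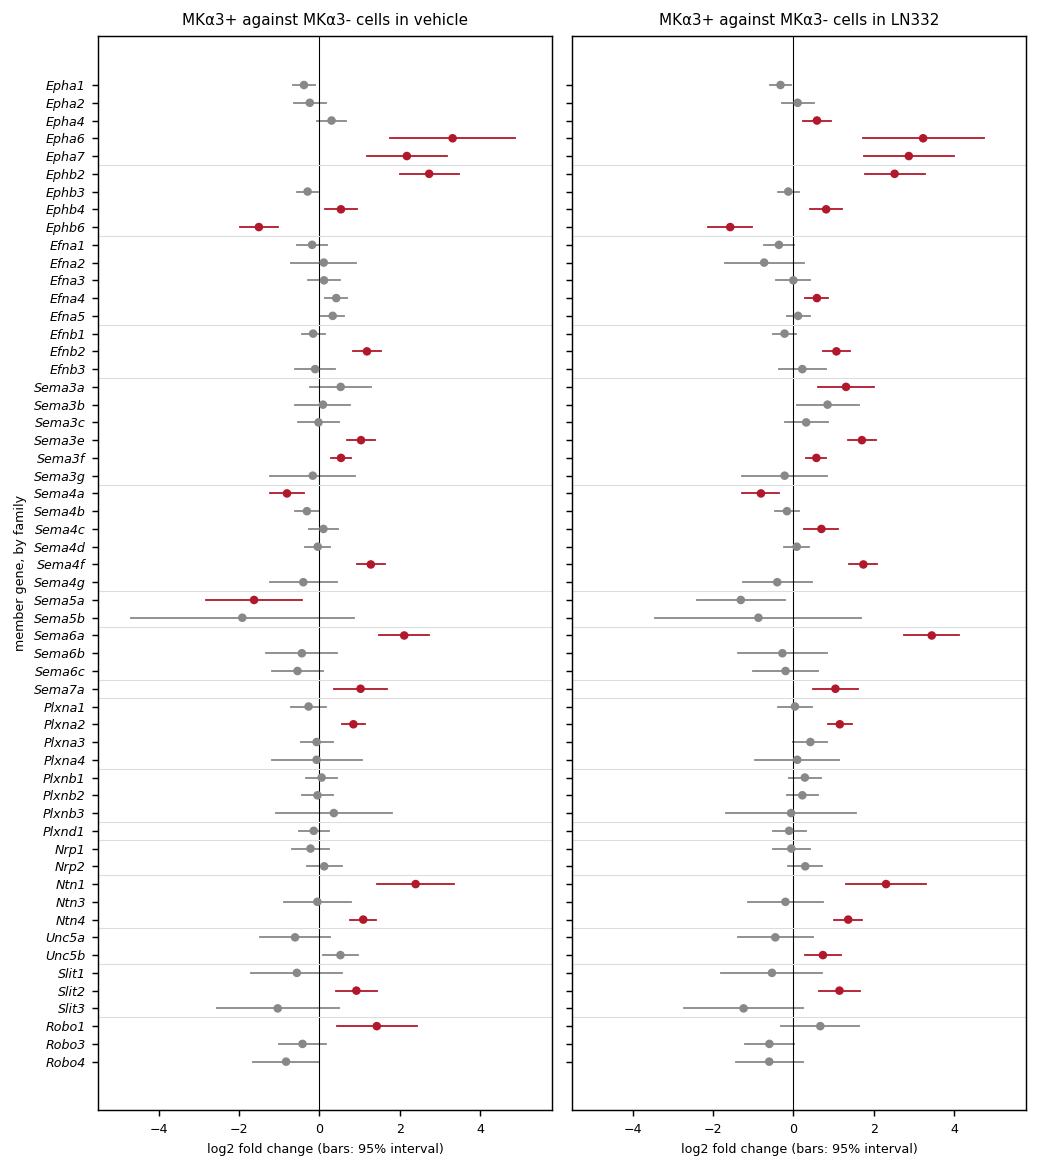
Log2 fold change of each member between MKα3+ and MKα3- cells in vehicle (left) and in LN332 (right), with its 95% interval; red points are called. In vehicle 15 red points lie right of 0 and 3 left of it, and in LN332 19 and 2.

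Among the EphB receptors, *Ephb2* rose and *Ephb6* fell. *Ephb2* binds B-type ephrins and sorts cells at tissue boundaries. *Ephb2* was at 0.842, 1.19, 0.921 and 2.003 CPM in the vehicle-treated MKα3- libraries and at 9.24, 8.58, 7.68 and 6.33 CPM in the vehicle-treated MKα3+ libraries. With LN332, *Ephb2* was at 2.60, 1.27, 0.574 and 1.37 CPM in MKα3- cells and at 9.04, 8.12, 7.70 and 5.09 CPM in MKα3+ cells. All MKα3+ libraries lay above all MKα3- libraries under both treatments. *Ephb2* gave a log2 fold change of 2.73 ± 0.35 (SE; limma-voom, adjusted p = 1.32e-05) in vehicle and 2.52 ± 0.35 (adjusted p = 3.61e-05) in LN332. *Ephb6* is an Eph receptor whose kinase domain is inactive. *Ephb6* was at 8.49, 10.6, 12.04 and 10.4 CPM in the vehicle-treated MKα3- libraries and at 3.27, 3.97, 4.19 and 3.20 CPM in the vehicle-treated MKα3+ libraries. With LN332, *Ephb6* was at 7.10, 8.65, 9.94 and 4.69 CPM in MKα3- cells and at 3.61, 2.80, 2.02 and 1.99 CPM in MKα3+ cells. Here the MKα3+ libraries lay below the MKα3- libraries under both treatments. *Ephb6* gave a log2 fold change of -1.5 ± 0.22 (SE; limma-voom, adjusted p = 6.27e-05) in vehicle and -1.57 ± 0.26 (adjusted p = 0.00018) in LN332.

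*Ephb4*, the receptor of ephrin-B2 in blood vessels, was higher in MKα3+ cells by less. *Ephb4* was at 28.3, 31.4, 42.3 and 35.3 CPM in the vehicle-treated MKα3- libraries and at 35.5, 56.6, 56.9 and 51.7 CPM in the vehicle-treated MKα3+ libraries. With LN332, *Ephb4* was at 23.9, 23.7, 42.97 and 25.1 CPM in MKα3- cells and at 42.3, 51.96, 56.1 and 48.7 CPM in MKα3+ cells. The groups overlapped in vehicle through replicate 1 of the MKα3+ cells and in LN332 through replicate 3 of the MKα3- cells. *Ephb4* gave a log2 fold change of 0.54 ± 0.19 (SE; limma-voom, adjusted p = 0.038) in vehicle and 0.82 ± 0.19 (adjusted p = 0.00342) in LN332. The vehicle call ended without the 3 libraries raised in low genes (log2 fold change 0.55, adjusted p = 0.0547 by limma-voom) and when replicate 1, 2 or 4 of the MKα3- or 2, 3 or 4 of the MKα3+ vehicle libraries was left out (adjusted p = 0.0580 to 0.111). *Ephb3*, the remaining EphB receptor, was not called: its means were 117 ± 6.08 and 95.7 ± 9.53 CPM (SD, n = 4) in MKα3- and MKα3+ cells in vehicle, with no overlap, and its log2 fold change was -0.29 ± 0.13 (limma-voom, adjusted p = 0.0962).

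Of the EphA receptors, *Epha6* and *Epha7* were near the floor of the assay in MKα3- cells and above it in MKα3+ cells. Both bind A-type ephrins and are best known from the nervous system. *Epha6* had 0, 1, 5 and 5 counts in the vehicle-treated MKα3- libraries and 13, 2, 1 and 1 counts in the LN332-treated ones. In MKα3+ cells it had 24, 17, 15 and 23 counts in vehicle and 64, 21, 19 and 22 counts in LN332. These values are 0, 0.0339, 0.177 and 0.173 CPM against 0.873, 0.682, 0.588 and 0.827 CPM in vehicle, without overlap. *Epha6* gave a log2 fold change of 3.32 ± 0.74 (SE; limma-voom, adjusted p = 0.00263) in vehicle and 3.23 ± 0.72 (adjusted p = 0.00229) in LN332. The 13 counts in replicate 1 of MKα3- cells and the 64 in replicate 1 of MKα3+ cells, both in LN332, came from libraries raised in low genes. Without the 3 raised libraries the log2 fold change of *Epha6* was 3.75 in vehicle and 3.55 in LN332 (limma-voom, adjusted p = 0.000168 and 0.000368). About 107 bases of its exons overlap an antisense transcript, *Gm9017*.

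*Epha7* was at 0.175, 0.170, 0.248 and 0.656 CPM in the vehicle-treated MKα3- libraries and at 2.07, 0.962, 0.979 and 1.26 CPM in the vehicle-treated MKα3+ libraries. With LN332, *Epha7* was at 0.466, 0.106, 0.251 and 0.0489 CPM in MKα3- cells and at 1.61, 1.14, 1.13 and 1.72 CPM in MKα3+ cells. Counts per library were 5, 5, 7 and 19 in vehicle and 12, 3, 7 and 1 in LN332 in MKα3- cells. The MKα3+ libraries were above the MKα3- libraries in both treatments. *Epha7* gave a log2 fold change of 2.18 ± 0.48 (SE; limma-voom, adjusted p = 0.00233) in vehicle and 2.88 ± 0.53 (adjusted p = 0.000532) in LN332. Without the 3 raised libraries the fold changes were 2.59 and 3.27.

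*Epha4*, which binds ephrins of both types, was called in LN332. *Epha4* was at 12.1, 18.2, 14.98 and 18.5 CPM in the vehicle-treated MKα3- libraries and at 16.5, 20.4, 21.1 and 20.1 CPM in the vehicle-treated MKα3+ libraries. With LN332, *Epha4* was at 14.6, 15.96, 20.1 and 12.8 CPM in MKα3- cells and at 17.9, 24.2, 27.6 and 26.7 CPM in MKα3+ cells. In LN332, 3 of 4 MKα3+ libraries lay above every MKα3- library. *Epha4* gave a log2 fold change of 0.30 ± 0.17 (SE; limma-voom, adjusted p = 0.193) in vehicle and 0.59 ± 0.17 (adjusted p = 0.0127) in LN332. Without replicate 4 of the LN332-treated MKα3- cells the LN332 value fell to the fold limit (0.50, adjusted p = 0.0394 by limma-voom). *Epha2* and *Epha1* were not called in either treatment. *Epha2* had means of 435 ± 52.2 CPM in MKα3- cells and 371 ± 65.4 CPM in MKα3+ cells in vehicle, and the 95% interval of its log2 fold change was -0.63 to 0.16. *Epha1* was at 64.3 ± 8.92 and 48.99 ± 1.36 CPM without overlap, and gave an adjusted p of 0.0331 by limma-voom and a log2 fold change of -0.38 ± 0.13, inside the fold limit. Exons of *Epha1* overlap *Zyx* on the other strand over 236 bases.

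Of the 8 ephrins, *Efnb2* was called in both treatments and *Efna4* in LN332. *Efnb2* encodes ephrin-B2, a transmembrane ligand of EphB receptors. *Efnb2* was at 51.5, 67.9, 46.1 and 63.3 CPM in the vehicle-treated MKα3- libraries and at 108, 136, 129 and 145 CPM in the vehicle-treated MKα3+ libraries. With LN332, *Efnb2* was at 76.5, 123, 81.1 and 76.8 CPM in MKα3- cells and at 150.4, 196, 186 and 211 CPM in MKα3+ cells. The 4 groups were ordered MKα3- vehicle, MKα3- LN332, MKα3+ vehicle, MKα3+ LN332, and of neighbours in this order only the middle pair overlapped, through replicate 2 of MKα3- cells in LN332. *Efnb2* gave a log2 fold change of 1.19 ± 0.16 (SE; limma-voom, adjusted p = 2.75e-05) in vehicle and 1.07 ± 0.16 (adjusted p = 7.78e-05) in LN332. *Efna4* encodes a GPI-anchored ligand of EphA receptors. *Efna4* was at 12.5, 13.7, 16.6 and 13.1 CPM in the vehicle-treated MKα3- libraries and at 18.3, 20.4, 18.998 and 16.9 CPM in the vehicle-treated MKα3+ libraries. With LN332, *Efna4* was at 11.9, 12.3, 14.5 and 10.998 CPM in MKα3- cells and at 22.7, 18.3, 19.5 and 15.1 CPM in MKα3+ cells. Neither comparison of the lines had overlap. *Efna4* gave a log2 fold change of 0.42 ± 0.13 (SE; limma-voom, adjusted p = 0.0211) in vehicle and 0.59 ± 0.13 (adjusted p = 0.00303) in LN332. The vehicle difference was inside the fold limit, and the LN332 call ended without replicate 1 of the LN332-treated MKα3+ cells (log2 fold change 0.49) or without the 3 raised libraries (0.47). Its exons overlap the antisense transcript *4731419I09Rik* over 168 bases, 10.5% of their length, and whether reads were counted by strand is not given in the sources used here.

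The other 6 ephrins were not called in either comparison. In vehicle their log2 fold changes ran from -0.18 for *Efna1* to 0.33 for *Efna5* (limma-voom, adjusted p = 0.0798). *Efnb1*, the other broadly expressed B-type ephrin, was at 61.2 ± 11.7 CPM in MKα3- cells and 54.3 ± 4.34 CPM in MKα3+ cells, with a 95% interval of -0.44 to 0.13 for the log2 fold change. In LN332 they ran from -0.73 for *Efna2*, which had 6 to 12 counts per library in MKα3+ cells, to 0.22 for *Efnb3*.

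Among the secreted class 3 semaphorins, *Sema3e* and *Sema3f* were higher in MKα3+ cells in both treatments and *Sema3a* in LN332. *Sema3e* binds plexin-D1 directly. *Sema3e* was at 28.99, 18.7, 20.05 and 22.1 CPM in the vehicle-treated MKα3- libraries and at 41.8, 50.1, 47.3 and 43.1 CPM in the vehicle-treated MKα3+ libraries. With LN332, *Sema3e* was at 22.3, 20.4, 25.2 and 14.8 CPM in MKα3- cells and at 50.6, 79.3, 69.2 and 73.01 CPM in MKα3+ cells. The lines did not overlap in either treatment, and the LN332-treated MKα3+ libraries were the highest. *Sema3e* gave a log2 fold change of 1.04 ± 0.16 (SE; limma-voom, adjusted p = 0.00014) in vehicle and 1.71 ± 0.17 (adjusted p = 6.87e-07) in LN332. *Sema3f* signals through neuropilin-2. *Sema3f* was at 88.99, 88.5, 98.1 and 85.8 CPM in the vehicle-treated MKα3- libraries and at 115, 138, 132 and 142 CPM in the vehicle-treated MKα3+ libraries. With LN332, *Sema3f* was at 75.3, 78.6, 101 and 63.3 CPM in MKα3- cells and at 108, 122, 109 and 130.03 CPM in MKα3+ cells. Again the lines did not overlap. *Sema3f* gave a log2 fold change of 0.54 ± 0.12 (SE; limma-voom, adjusted p = 0.0022) in vehicle and 0.57 ± 0.12 (adjusted p = 0.0012) in LN332. Without replicate 4 of the LN332-treated MKα3- cells the LN332 value of *Sema3f* was 0.47, inside the fold limit.

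*Sema3a*, a repellent that acts through neuropilin-1, was called in LN332 only, at a low level. *Sema3a* was at 0.316, 0.305, 0.460 and 0.380 CPM in the vehicle-treated MKα3- libraries and at 0.473, 0.642, 0.509 and 0.504 CPM in the vehicle-treated MKα3+ libraries. With LN332, *Sema3a* was at 0.466, 0.353, 0.646 and 0.293 CPM in MKα3- cells and at 1.25, 0.934, 1.63 and 0.749 CPM in MKα3+ cells. Its counts were 9 to 13 in the vehicle-treated MKα3- libraries. The lines did not overlap in either treatment, though in vehicle by a narrow margin. *Sema3a* gave a log2 fold change of 0.53 ± 0.36 (SE; limma-voom, adjusted p = 0.296) in vehicle and 1.31 ± 0.33 (adjusted p = 0.00555) in LN332. The difference between these fold changes was not called (0.78 ± 0.49, unadjusted p = 0.13). *Sema3c*, the most abundant semaphorin, was at 358 ± 69.4 CPM in MKα3- cells and 356 ± 84.4 CPM in MKα3+ cells in vehicle, a log2 fold change of -0.02 ± 0.25. *Sema3b* and *Sema3g* were not called, at 0.293 to 1.92 CPM and 0.225 to 1.38 CPM over all libraries.

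The membrane-bound class 4 semaphorins went in both directions. *Sema4f*, a transmembrane semaphorin best known from neurons, rose. *Sema4f* was at 26.9, 25.3, 25.2 and 32.6 CPM in the vehicle-treated MKα3- libraries and at 73.4, 54.9, 74.9 and 64.8 CPM in the vehicle-treated MKα3+ libraries. With LN332, *Sema4f* was at 26.9, 21.97, 29.6 and 33.1 CPM in MKα3- cells and at 107, 65.4, 109 and 93.1 CPM in MKα3+ cells. The lowest MKα3+ library lay well above the highest MKα3- library in each treatment. *Sema4f* gave a log2 fold change of 1.28 ± 0.16 (SE; limma-voom, adjusted p = 1.33e-05) in vehicle and 1.74 ± 0.16 (adjusted p = 4.39e-07) in LN332. *Sema4a*, which binds plexins and receptors on immune cells, was lower in MKα3+ cells. *Sema4a* was at 49.7, 35.6, 53.2 and 32.2 CPM in the vehicle-treated MKα3- libraries and at 18.1, 24.5, 28.99 and 25.3 CPM in the vehicle-treated MKα3+ libraries. With LN332, *Sema4a* was at 35.4, 25.5, 37.3 and 19.6 CPM in MKα3- cells and at 14.6, 15.9, 18.6 and 17.01 CPM in MKα3+ cells. The lines did not overlap in either treatment. *Sema4a* gave a log2 fold change of -0.81 ± 0.20 (SE; limma-voom, adjusted p = 0.00562) in vehicle and -0.81 ± 0.22 (adjusted p = 0.00919) in LN332.

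*Sema4c*, a ligand of plexin-B2, separated the lines in LN332. *Sema4c* was at 9.30, 10.3, 12.96 and 8.88 CPM in the vehicle-treated MKα3- libraries and at 11.1, 11.03, 12.8 and 9.43 CPM in the vehicle-treated MKα3+ libraries. With LN332, *Sema4c* was at 7.45, 5.23, 7.47 and 3.57 CPM in MKα3- cells and at 10.7, 9.74, 8.48 and 8.95 CPM in MKα3+ cells. In vehicle the lines overlapped throughout, and in LN332 the MKα3+ libraries lay above the MKα3- libraries. *Sema4c* gave a log2 fold change of 0.10 ± 0.17 (SE; limma-voom, adjusted p = 0.699) in vehicle and 0.70 ± 0.20 (adjusted p = 0.0134) in LN332. Its exons overlap the antisense transcript *D430040D24Rik* over 334 bases. *Sema4b*, *Sema4d* and *Sema4g* were not called in either treatment. *Sema4d*, a ligand of plexin-B1, was at 66.8 ± 12.4 and 64.1 ± 4.44 CPM in MKα3- cells and MKα3+ cells in vehicle, with a 95% interval of -0.35 to 0.27 for the log2 fold change.

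Of classes 5 to 7, *Sema6a* and *Sema7a* were higher in MKα3+ cells in both treatments and *Sema5a* was lower in vehicle. *Sema6a* is a transmembrane ligand of the plexins A2 and A4. *Sema6a* was at 0.421, 0.678, 0.602 and 0.898 CPM in the vehicle-treated MKα3- libraries and at 1.93, 2.93, 3.53 and 3.02 CPM in the vehicle-treated MKα3+ libraries. With LN332, *Sema6a* was at 0.698, 0.424, 0.287 and 0.342 CPM in MKα3- cells and at 4.10, 4.59, 5.37 and 4.87 CPM in MKα3+ cells. MKα3- libraries had 7 to 26 counts. The lines did not overlap, and in MKα3+ cells the LN332 libraries lay above the vehicle libraries. *Sema6a* gave a log2 fold change of 2.11 ± 0.30 (SE; limma-voom, adjusted p = 4.23e-05) in vehicle and 3.45 ± 0.33 (adjusted p = 4.81e-07) in LN332. *Sema7a* is held in the membrane by a GPI anchor and binds plexin-C1 and a β1 integrin. *Sema7a* was at 3.47, 1.56, 2.34 and 2.97 CPM in the vehicle-treated MKα3- libraries and at 6.37, 3.09, 6.15 and 5.25 CPM in the vehicle-treated MKα3+ libraries. With LN332, *Sema7a* was at 5.01, 2.61, 5.96 and 4.69 CPM in MKα3- cells and at 10.1, 7.18, 10.5 and 8.58 CPM in MKα3+ cells. In vehicle the groups overlapped through replicate 2 of the MKα3+ cells, and in LN332 they did not. *Sema7a* gave a log2 fold change of 1.03 ± 0.31 (SE; limma-voom, adjusted p = 0.0206) in vehicle and 1.05 ± 0.26 (adjusted p = 0.00537) in LN332. The vehicle call ended without replicate 2 or 3 of the MKα3- or 1 or 3 of the MKα3+ vehicle libraries (limma-voom, adjusted p = 0.0509 to 0.0755).

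*Sema5a* was at 0.632, 2.0005, 2.51 and 2.49 CPM in the vehicle-treated MKα3- libraries and at 0.837, 0.481, 0.313 and 0.612 CPM in the vehicle-treated MKα3+ libraries. With LN332, *Sema5a* was at 0.854, 2.30, 3.66 and 2.004 CPM in MKα3- cells and at 0.763, 1.14, 0.700 and 0.637 CPM in MKα3+ cells. This transmembrane semaphorin carries thrombospondin repeats. In both treatments replicate 1 of the MKα3- cells lay inside the range of the MKα3+ libraries, and the other 3 lay above it. *Sema5a* gave a log2 fold change of -1.62 ± 0.56 (SE; limma-voom, adjusted p = 0.0388) in vehicle and -1.31 ± 0.52 (adjusted p = 0.0633) in LN332. The vehicle call ended when replicate 2, 3 or 4 of either vehicle-treated line was left out (limma-voom, adjusted p = 0.0735 to 0.114). In LN332 *Sema5a* was called, also as lower, by DESeq2 (-1.45, adjusted p = 0.00786) and edgeR (-1.45, adjusted p = 0.0217), and by limma-voom with quality weights (-1.52, adjusted p = 0.005), without the 3 raised libraries (-1.69, adjusted p = 0.0154) and without replicate 1 of the LN332-treated MKα3- cells (-1.71, adjusted p = 0.00906). *Sema5b*, *Sema6b* and *Sema6c* were not called between the lines; with quality weights *Sema5b* (-2.77) and *Sema6c* (-0.65) were called as lower in vehicle. *Sema5b* ranged from 0 to 2.63 CPM and was highest in the 3 libraries raised in low genes.

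Plexins and neuropilins, the receptors of the semaphorins, were called for 1 of 10 members. *Plxna2* is a receptor of Sema6a. *Plxna2* was at 14.2, 14.9, 17.99 and 23.7 CPM in the vehicle-treated MKα3- libraries and at 33.3, 28.7, 31.6 and 31.2 CPM in the vehicle-treated MKα3+ libraries. With LN332, *Plxna2* was at 14.9, 16.3, 18.8 and 18.4 CPM in MKα3- cells and at 33.5, 36.3, 38.3 and 44.3 CPM in MKα3+ cells. All MKα3+ libraries lay above all MKα3- libraries in both treatments. *Plxna2* gave a log2 fold change of 0.85 ± 0.14 (SE; limma-voom, adjusted p = 0.000171) in vehicle and 1.16 ± 0.14 (adjusted p = 7.23e-06) in LN332. The other 9 had log2 fold changes from -0.27 (*Plxna1*) to 0.36 (*Plxnb3*) in vehicle. *Nrp1* and *Nrp2*, the co-receptors of *Sema3a* and *Sema3f*, gave -0.22 ± 0.22 and 0.12 ± 0.20, with 95% intervals of -0.68 to 0.25 and -0.31 to 0.55. *Plxnd1*, which binds Sema3e, gave -0.14 ± 0.18 (-0.51 to 0.23). *Plxnb2* was at 596 ± 80.3 and 578 ± 81.99 CPM in MKα3- cells and MKα3+ cells, a log2 fold change of -0.05 ± 0.19. In LN332 the largest of the 9 was that of *Plxna3* at 0.42 ± 0.20 (limma-voom, adjusted p = 0.115), which was called without the 3 raised libraries (0.61, adjusted p = 0.0454).

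Of the 3 netrins, *Ntn1* and *Ntn4* were higher in MKα3+ cells. *Ntn1* encodes netrin-1, the prototype attractant. *Ntn1* was at 0.597, 0.305, 0.708 and 1.55 CPM in the vehicle-treated MKα3- libraries and at 4.62, 4.77, 3.56 and 2.19 CPM in the vehicle-treated MKα3+ libraries. With LN332, *Ntn1* was at 1.20, 0.848, 0.359 and 0.635 CPM in MKα3- cells and at 5.46, 3.94, 2.996 and 2.43 CPM in MKα3+ cells. Counts in the MKα3- libraries were 9 to 45 in vehicle, and the lines did not overlap in either treatment. *Ntn1* gave a log2 fold change of 2.40 ± 0.46 (SE; limma-voom, adjusted p = 0.00074) in vehicle and 2.31 ± 0.47 (adjusted p = 0.00115) in LN332. *Ntn4* encodes netrin-4, a basement membrane protein that binds laminins. *Ntn4* was at 9.16, 8.31, 10.5 and 11.1 CPM in the vehicle-treated MKα3- libraries and at 18.96, 18.8, 22.1 and 23.2 CPM in the vehicle-treated MKα3+ libraries. With LN332, *Ntn4* was at 6.36, 6.53, 9.15 and 7.97 CPM in MKα3- cells and at 16.7, 15.6, 21.6 and 23.4 CPM in MKα3+ cells. These lines were likewise separate in both treatments. *Ntn4* gave a log2 fold change of 1.09 ± 0.15 (SE; limma-voom, adjusted p = 3.58e-05) in vehicle and 1.37 ± 0.17 (adjusted p = 8.67e-06) in LN332. *Ntn3* was not called (-0.05 in vehicle), and its exons overlap *Tbc1d24* on the same strand.

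*Unc5b*, a netrin receptor, was the most abundant of its system. *Unc5b* was at 142, 229, 174 and 242 CPM in the vehicle-treated MKα3- libraries and at 196, 304, 304 and 324 CPM in the vehicle-treated MKα3+ libraries. With LN332, *Unc5b* was at 153, 269, 272 and 210.1 CPM in MKα3- cells and at 293, 384, 370.3 and 432 CPM in MKα3+ cells. The lines overlapped in vehicle and did not in LN332. *Unc5b* gave a log2 fold change of 0.52 ± 0.21 (SE; limma-voom, adjusted p = 0.0672) in vehicle and 0.74 ± 0.21 (adjusted p = 0.0121) in LN332. The vehicle difference was called when the 3 raised libraries were left out (0.63, adjusted p = 0.0157 by limma-voom), or without replicate 1 of the vehicle-treated MKα3+ cells (0.69, adjusted p = 0.0198). It was also called without replicate 4 of MKα3- vehicle (0.63) or 1 of MKα3- LN332 (0.52, limma-voom, adjusted p = 0.0404 for each). DESeq2 called it (0.51, adjusted p = 0.0440), as did limma-voom with quality weights (0.62, adjusted p = 0.00166) and with a replicate block (0.52, adjusted p = 0.00109). *Unc5a* was not called, at 0.428 to 2.06 CPM.

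In the Slit and Robo system 1 ligand and 1 receptor were called in vehicle. *Slit2* is the best studied Slit. *Slit2* was at 2.81, 4.98, 2.76 and 2.87 CPM in the vehicle-treated MKα3- libraries and at 7.82, 7.42, 4.90 and 5.14 CPM in the vehicle-treated MKα3+ libraries. With LN332, *Slit2* was at 2.56, 3.96, 2.80 and 3.52 CPM in MKα3- cells and at 7.43, 9.46, 5.99 and 5.84 CPM in MKα3+ cells. In vehicle replicate 2 of the MKα3- cells reached into the MKα3+ range by a small margin, and in LN332 the lines were separate. *Slit2* gave a log2 fold change of 0.92 ± 0.24 (SE; limma-voom, adjusted p = 0.00771) in vehicle and 1.15 ± 0.24 (adjusted p = 0.00166) in LN332. *Robo1* is a receptor for Slits. *Robo1* was at 0.316, 0.543, 0.354 and 0.82895 CPM in the vehicle-treated MKα3- libraries and at 1.35, 1.96, 1.18 and 0.971 CPM in the vehicle-treated MKα3+ libraries. With LN332, *Robo1* was at 1.55, 0.530, 0.431 and 0.587 CPM in MKα3- cells and at 1.85, 1.10, 1.44 and 0.487 CPM in MKα3+ cells. Counts were 9 to 49 per library in vehicle. The lines were separate in vehicle and overlapped in LN332, where replicate 1 of the MKα3- cells, a library raised in low genes, was second only to replicate 1 of the MKα3+ cells, another such library. *Robo1* gave a log2 fold change of 1.43 ± 0.47 (SE; limma-voom, adjusted p = 0.0299) in vehicle and 0.67 ± 0.46 (adjusted p = 0.287) in LN332. The vehicle call ended without replicate 1, 2 or 3 of the MKα3- or 1 or 2 of the MKα3+ vehicle libraries (limma-voom, adjusted p = 0.0508 to 0.0853). *Robo3* and *Robo4* were not called and had fold changes of -0.42 and -0.83 in vehicle. *Slit1* and *Slit3* gave -0.56 and -1.04 in vehicle, with 95% intervals of -1.70 to 0.57 and -2.56 to 0.49. Without the 3 raised libraries *Robo3* (-0.74, adjusted p = 0.0473 by limma-voom) and *Slit3* (-1.57, adjusted p = 0.0175) were called as lower in LN332. With quality weights *Robo3* was called in vehicle (-0.53) and LN332 (-0.71), *Robo4* in both (-0.98 and -0.80) and *Slit3* in vehicle (-1.30).

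The low-level members called in vehicle kept their calls without the 3 libraries raised in low genes. *Ephb2* then gave a log2 fold change of 2.99, *Ntn1* 2.79, *Sema6a* 2.28, *Robo1* 1.69 and *Sema5a* -1.45 in vehicle (limma-voom, adjusted p at most 0.0389). In LN332 *Sema3a* gave 1.29 (limma-voom, adjusted p = 0.0182).

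**Figure D4:**
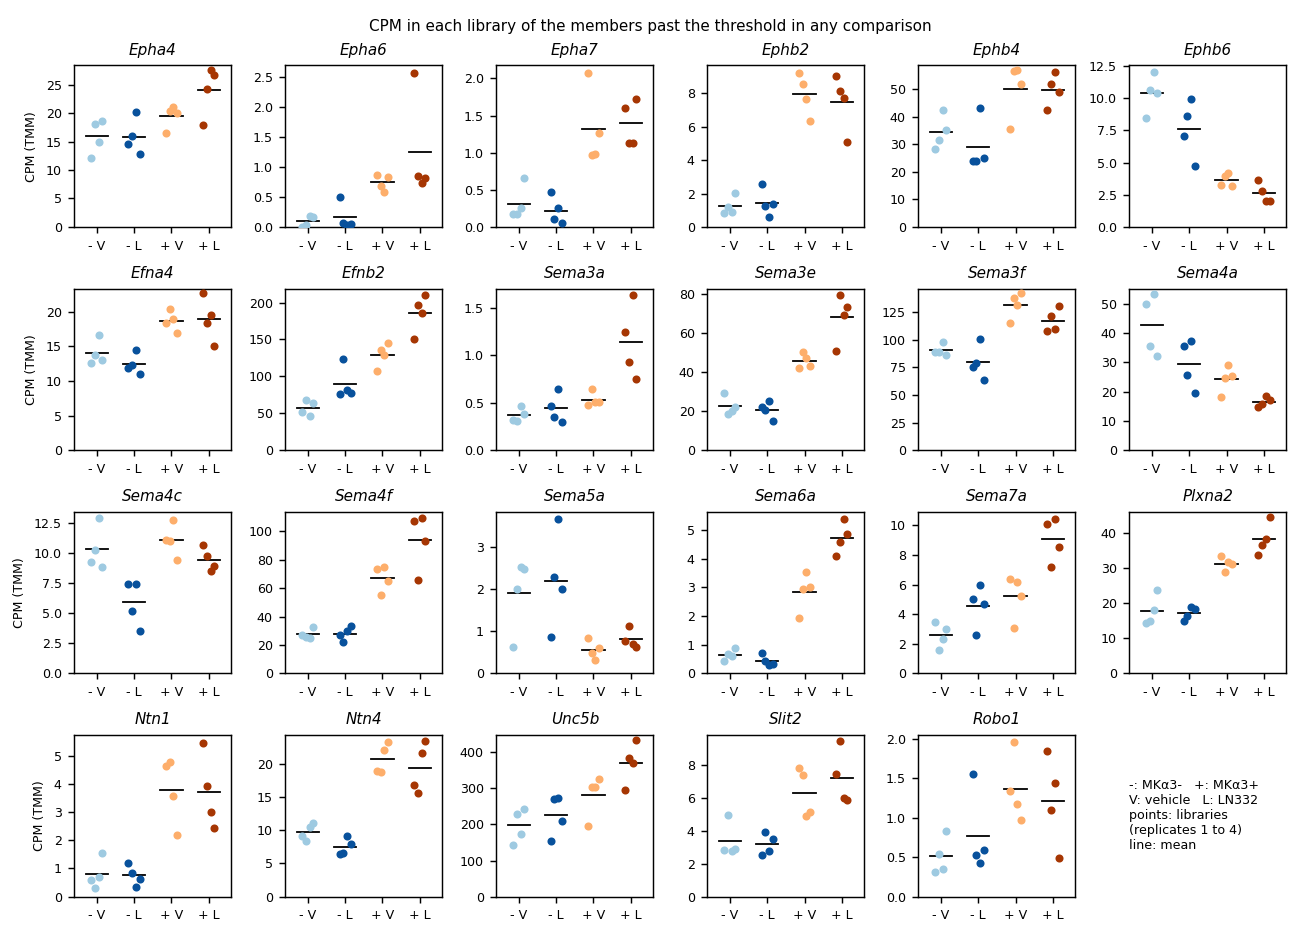
CPM in each library (points; line, mean of 4) of the 23 members called in any comparison, with the y axis starting at 0 and the x axis giving the line (- or +) and the treatment (V, vehicle; L, LN332). *Efnb2* climbs over the 4 groups, *Sema4c* is lowest in LN332-treated MKα3- cells, and 1 high library each is visible for *Epha6* in both LN332 groups.

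The second question was whether LN332 changed the members, and whether it needed the integrin. In MKα3+ cells 0 of 56 members were called by limma-voom, against 0.187% of all genes. There were 11 at an unadjusted p under 0.05 (9.59% of all genes). Here edgeR and DESeq2 called 0 members, with only 4 and 121 calls over all 14474 genes. Same-numbered vehicle and LN332 libraries of MKα3+ cells deviated together from their group means, with correlations of 0.202 to 0.620 in the 4 pairs. With the replicate number as a block limma-voom called 3 members in these cells, all higher: *Efnb2* (0.52, adjusted p = 0.0198), *Sema3c* (0.63, adjusted p = 0.0107) and *Sema7a* (0.80, adjusted p = 0.00717). Over all 14474 genes the block raised the calls in these cells from 27 to 218. In MKα3- cells limma-voom also called 0, against 0.304% of all genes, with 11 at an unadjusted p under 0.05 (14% of all genes). There edgeR called 0 members, with 47 calls over all genes, and DESeq2 called 2, *Efnb2* and *Sema4c*, with 165 calls over all genes. With the block, limma-voom called *Efnb2* and *Sema7a* as higher and *Sema4c* and *Sema6c* as lower in MKα3- cells. Over all genes it then called 259 in these cells. Averaged over both lines 4 members were called (7.14%), against 1.35% of all genes, 2 higher (0.919% of all genes) and 2 lower (0.435%).

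*Efnb2* was higher with LN332 in both lines, without overlap in either. Its mean went from 57.2 ± 10.2 to 89.5 ± 22.7 CPM in MKα3- cells and from 129 ± 15.9 to 186 ± 25.7 CPM in MKα3+ cells (SD, n = 4). The averaged log2 fold change was 0.58 ± 0.11 (limma-voom, adjusted p = 0.00958), made of 0.63 ± 0.16 in MKα3- and 0.52 ± 0.16 in MKα3+ cells. The difference of the responses was -0.11 ± 0.23, with a 95% interval of -0.59 to 0.37. In the two-sided exact permutation test each line gave p = 0.0286, the smallest that 70 splits of 4 against 4 libraries allow. Without replicate 2 of the LN332-treated MKα3- cells the average was 0.49, inside the fold limit. Scaling by library size alone also ended the call, at an average of 0.499 (limma-voom, adjusted p = 0.0156).

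*Sema7a* was the other member to rise. Its mean went from 2.59 ± 0.827 to 4.57 ± 1.41 CPM in MKα3- cells and from 5.21 ± 1.498 to 9.09 ± 1.51 CPM in MKα3+ cells. In MKα3+ cells the treatments did not overlap, and in MKα3- cells replicate 2 in LN332 lay inside the vehicle range. The averaged log2 fold change was 0.82 ± 0.20 (limma-voom, adjusted p = 0.0315), and the difference of the responses was 0.02 ± 0.41 (-0.84 to 0.88). Without the 3 libraries raised in low genes the average was 0.80 with an adjusted p of 0.0550, and 7 of 16 single omissions ended the call (replicate 2 or 3 of MKα3- vehicle, 4 of MKα3- LN332, 2 or 4 of MKα3+ vehicle, and 3 or 4 of MKα3+ LN332; adjusted p = 0.0506 to 0.0669).

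*Sema4a* and *Sema4c* fell with LN332 in the average. *Sema4a* went from 42.7 ± 10.3 to 29.5 ± 8.36 CPM in MKα3- cells and from 24.2 ± 4.51 to 16.5 ± 1.68 CPM in MKα3+ cells, with overlap in both lines. Its averaged log2 fold change was -0.53 ± 0.15 (limma-voom, adjusted p = 0.0488), with -0.53 ± 0.20 and -0.53 ± 0.22 in the separate lines. *Sema4c* went from 10.4 ± 1.84 to 5.93 ± 1.89 CPM in MKα3- cells, without overlap, and from 11.1 ± 1.37 to 9.48 ± 0.981 CPM in MKα3+ cells, with overlap. The averaged value was -0.52 ± 0.13 (limma-voom, adjusted p = 0.0343), and the separate values were -0.82 ± 0.20 (adjusted p = 0.079) and -0.22 ± 0.18 (adjusted p = 0.809). The calls depended on single libraries: 12 of 16 single omissions ended that of *Sema4a* (all but replicate 4 of MKα3- vehicle, 1 and 3 of MKα3- LN332 and 1 of MKα3+ vehicle; adjusted p up to 0.101, or inside the fold limit), and 10 of 16 that of *Sema4c* (replicates 2 and 3 of MKα3- vehicle, 2 and 4 of MKα3- LN332, 1, 2 and 3 of MKα3+ vehicle, and 2, 3 and 4 of MKα3+ LN332; adjusted p up to 0.0740, or inside the fold limit). *Sema6c* had a larger averaged fold change, -0.87 ± 0.24, at an adjusted p of 0.0516 by limma-voom and was not called. It was called by DESeq2 (adjusted p = 0.0254), and by limma-voom with a 10-count minimum (0.0435), library size alone (0.0265), quality weights (0.008) and without the 3 raised libraries (-1.08, adjusted p = 0.0148).

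In MKα3+ cells 8 members had no overlap between treatments (14.3%, against 9.66% of all genes). *Efnb2*, *Plxna2*, *Sema3a*, *Sema3e*, *Sema6a* and *Sema7a* were higher in LN332 (6, against 4.78% of all genes), and *Efna2* and *Epha1* were lower (2, against 4.88%). *Sema6a* went from 2.85 ± 0.669 to 4.73 ± 0.533 CPM, for a log2 fold change of 0.76 ± 0.20 (limma-voom, adjusted p = 0.147). *Sema3e* went from 45.6 ± 3.85 to 68.04 ± 12.3 CPM, for a log2 fold change of 0.56 ± 0.15 (limma-voom, adjusted p = 0.162). *Sema3a* went from 0.532 ± 0.0748 to 1.14 ± 0.388 CPM, for a log2 fold change of 1.02 ± 0.31 (limma-voom, adjusted p = 0.203). These 3 did not pass the threshold over all genes. With quality weights they did, *Sema6a* at 0.67 (adjusted p = 0.00403 by limma-voom), *Sema3e* at 0.63 (adjusted p = 0.000415) and *Sema3a* at 1.02 (adjusted p = 0.0168). The weights also called *Efnb2*, *Epha2*, *Sema3c* and *Sema7a* as higher and *Efna2*, *Ephb6* and *Sema4a* as lower. Over all 14474 genes they called 454 in MKα3+ cells, against 27 in the main fit. *Sema3e* also passed without the 3 raised libraries (0.70, adjusted p = 0.0498 by limma-voom). In MKα3- cells 2 members had no overlap (3.57%, against 4.95% of all genes), *Efnb2* higher (2.29% of all genes) and *Sema4c* lower (2.66%).

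The difference of the LN332 responses between the lines was called for 0 of 56 members, against 0% of all genes, by limma-voom, edgeR and DESeq2. At an unadjusted p under 0.05 there were 3 (1.13% of all genes). *Sema6a* had 1.33 ± 0.44 (unadjusted p = 0.0078 by limma-voom), with -0.57 ± 0.39 in MKα3- and 0.76 ± 0.20 in MKα3+ cells. *Sema3e* had 0.67 ± 0.23 (unadjusted p = 0.011 in limma-voom's fit over all genes), with -0.11 ± 0.18 and 0.56 ± 0.15. *Sema4c* had 0.60 ± 0.26 (unadjusted p = 0.037 in the same limma-voom fit), with the fall in MKα3- cells given above. These 3 differences were positive, with an adjusted p of 0.9999 for each by limma-voom. For *Sema4c* the positive sign came from a smaller fall in MKα3+ cells (-0.22) than in MKα3- cells (-0.82), not from a rise.

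**Figure D5:**
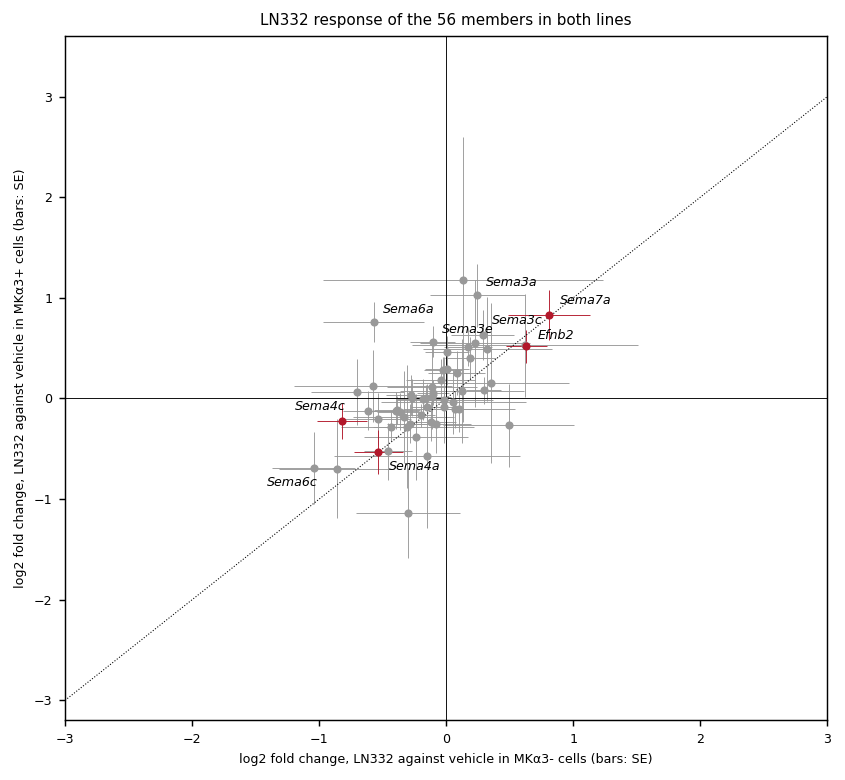
Log2 fold change of LN332 against vehicle in MKα3- cells (x axis) and in MKα3+ cells (y axis) for the 56 members, with SE bars and the line of equality (dotted); red marks the 4 members called in the average. *Efnb2* (0.63 and 0.52) and *Sema7a* (0.81 and 0.83) lie near the line, while *Sema6a* and *Sema3e* lie above it, left of 0.

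A list of 111 other genes of these pathways was followed, of which 101 were in the table. In vehicle 26 were called, 16 up and 10 down in MKα3+ relative to MKα3- cells. In LN332 27 were called, 19 up and 8 down. The median log2 fold changes were 0.14 and 0.15, against 0.0056 and 0.0062 over all genes, of which 18.5% and 20.6% were called. Of 16 tabulated co-receptors and other ligands 5 were called in vehicle, of 66 cytoplasmic effectors 18, of 12 netrin, Slit and Unc5 partners 2, and of 7 sheddases 1. For the response to LN332 averaged over both lines, 1 was called, *Mical2*, against 1.35% of all genes.

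Of the 66 tabulated cytoplasmic effectors, 6 were called in vehicle at a log2 fold change of 1 or more in either direction. Among all 14474 genes 1362 were called at that size, a similar share, so large differences did not set the effectors apart. The 6 are named here because they passed that cut. *Crmp1*, a collapsin response mediator in semaphorin signalling, was at 1.74 ± 0.854 CPM in MKα3- cells and 62.7 ± 3.997 CPM in MKα3+ cells in vehicle, a log2 fold change of 5.27 ± 0.26 (limma-voom, adjusted p = 3.33e-10). *Mical2*, of a family of actin oxidases that act downstream of plexins, was at 16.9 ± 3.85 and 129 ± 21.2 CPM, for a log2 fold change of 2.94 ± 0.22 (limma-voom, adjusted p = 3.88e-08). With LN332 it rose to 26.6 ± 11.4 and 206 ± 30.7 CPM, an average of 0.62 ± 0.16 (limma-voom, adjusted p = 0.0319). *Srgap3*, an effector of Robo receptors, was lower in MKα3+ cells, at 2.54 ± 0.310 CPM against 21.3 ± 6.08 CPM, for a log2 fold change of -3.02 ± 0.34 (limma-voom, adjusted p = 3.9e-06). The chimaerins *Chn1* and *Chn2*, Rac inhibitors downstream of Eph receptors and plexins, gave 1.31 ± 0.33 and 1.94 ± 0.18 in vehicle. *Ptprj*, a receptor phosphatase that acts on Eph receptors, gave 1.05 ± 0.17.

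Of the partners at the membrane, *Flt1*, a VEGF receptor, was higher in MKα3+ cells, at 7.37 ± 1.75 against 1.98 ± 0.699 CPM in vehicle, a log2 fold change of 1.91 ± 0.31 (limma-voom, adjusted p = 0.000167). *Cd72*, a semaphorin receptor of B cells, gave 3.24 ± 0.98 in vehicle (limma-voom, adjusted p = 0.0198) with 7.26 ± 5.08 CPM in MKα3+ cells, where *Adgre1* was also highest; the part of immune cells in it was not tested. In LN332 *Cd72* gave 1.47 ± 0.88 (limma-voom, adjusted p = 0.218) and was not called. *Chl1*, an adhesion molecule that associates with neuropilin-1, was lower in MKα3+ cells in vehicle (-1.17 ± 0.36) and in LN332 (-1.33 ± 0.37). *Dscaml1*, at 2.07 ± 1.13 CPM in MKα3- cells in vehicle, was lower in vehicle (-2.32 ± 0.76) and gave -1.47 ± 0.75 in LN332 (limma-voom, adjusted p = 0.147), where it was not called. *Adam9*, a membrane metalloprotease, gave 0.83 ± 0.14 in vehicle and 1.05 ± 0.14 in LN332.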

How the data were processed

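RNA of 16 samples was made into poly(A)-selected libraries and sequenced, and reads were mapped to mm10 with Rsubread. The authors deposited raw gene counts from featureCounts by Entrez identifier; the strand setting is not given in the sources used here. The table had 14474 genes, each over 0.5 CPM in at least 6 libraries, so the study's filter (over 0.5 CPM in at least 3) removed 0 genes. Counts were scaled by TMM (edgeR 4.0.16) and fitted with limma-voom (limma 3.58.1, R 4.3.3) on all 16 libraries with 1 coefficient per group, with Benjamini-Hochberg adjustment over all genes. The code was tested on simulated data. Members and gene lists were chosen with earlier results of these data known. Library values were given for the 23 members called in any comparison, and pathway genes were named where called with an absolute log2 fold change of at least 1 or for LN332. Exon lengths and overlaps came from GENCODE vM21. Alternatives were DESeq2 1.42.0, edgeR's quasi-likelihood test, other scalings, filters, quality weights, a replicate block and omitted libraries. Replicates of a group differed by more than counting noise.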

Additional observations from a re-analysis of the deposited data

Results flagged for a closer look

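For the 23 members with library values, 92 groups of 4 libraries were searched for a library whose gap to the nearest other exceeded Dixon's critical value at the 95% level. There were 8, against 4.6 given by chance.

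*Epha6* was at 0.504 CPM in replicate 1 of LN332-treated MKα3- cells, against 0.0359 to 0.0706 CPM in the other 3. *Epha6* was also at 2.57 CPM in replicate 1 of LN332-treated MKα3+ cells, against 0.739 to 0.852 CPM. *Robo1*, in the former library, was at 1.55 CPM, against 0.431 to 0.587 CPM. *Epha7* was at 0.656 CPM in replicate 4 of vehicle-treated MKα3- cells, against 0.170 to 0.248 CPM. These 4 values come from the 3 libraries in which genes of low level were raised as a group.

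The other 4 lie in other libraries. *Unc5b* was at 196 CPM in replicate 1 of vehicle-treated MKα3+ cells, against 304 to 324 CPM, and *Slit2* at 4.98 CPM in replicate 2 of vehicle-treated MKα3- cells, against 2.76 to 2.87 CPM. In LN332-treated MKα3- cells *Ephb4* was at 43.0 CPM in replicate 3, against 23.7 to 25.1 CPM, and *Efnb2* was at 123 CPM in replicate 2, against 76.5 to 81.1 CPM.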

How the results depend on the processing

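The counts of members called between the lines moved by at most 1.5 times from 18 (vehicle) and 21 (LN332) under every alternative run; no called member changed direction, but the median over the members did, as given below. Leaving out each library in turn gave 14 to 19 and 19 to 24, with 2345 to 2754 and 2590 to 3338 over all genes. A minimum of 10 counts, which kept 42 members of 12795 genes, gave 12 and 16, with 2168 and 2525 over all genes. For LN332 in MKα3+ cells, 0 became 10 with quality weights, while calls over all genes went from 27 to 454. It became 1 without the 3 libraries raised in low genes (*Sema3e*, in an alternative chosen after seeing the data), with 76 over all genes. For MKα3- cells, with 44 calls over all genes in the main fit, 0 became 2 with DESeq2 (165 over all genes). It became 1 with library size alone (74), 2 with quality weights (123), 1 without those 3 libraries (165) and 0 to 1 with single libraries left out (1 to 150). The averaged count of 4, with 196 over all genes, became 0 at an absolute log2 fold change over 1 (13 over all genes). It became 8 with quality weights (464 over all genes) and 1 to 5 with single libraries left out (114 to 321 over all genes). It was 1 without replicate 2 or 3 of MKα3- vehicle, 2 or 4 of MKα3- LN332, 2 of MKα3+ vehicle or 3 or 4 of MKα3+ LN332. These fits called 114 to 198 over all genes. The median log2 fold change of the members was -0.068 to 0.079 (vehicle) and -0.0050 to 0.24 (LN332) over single omissions, and 0.073 and 0.29 without the 3 libraries. The cause of these shifts was not tested.

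Titles share replicate numbers 1 to 4 across groups, without saying what they mark. Deviations of same-numbered libraries correlated over 0.1 in 18 of 24 pairs (mean 0.2554, lowest -0.0469, against a mean of -0.0796 for different numbers). Same-numbered libraries were thus more alike on average. The main fit followed the study's methods, which name no block, and treated all libraries as unpaired. Its LN332 calls over all genes were 27 in MKα3+ and 44 in MKα3- cells, against 218 and 259 with a replicate block. Between vehicle and LN332 in MKα3+ cells all 4 pairs were over 0.1, and the blocked result is given with that comparison. With a replicate block 19 and 23 members were called between the lines, against 3056 and 3393 of all genes. There *Robo3* and *Sema5a* were added as lower in LN332. For LN332 the block called 3 members in MKα3+ cells (218 of all genes) and 4 in MKα3- cells (259 of all genes). The 4 were *Efnb2* and *Sema7a* as higher and *Sema4c* and *Sema6c* as lower. In the average 5 were called (363 of all genes), and for the interaction 0 (0 of all genes).

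Members of low level had few counts, such as 0 to 13 for *Epha6* in MKα3- cells, so smaller differences in them may have been missed. How far depth or the spread between replicates limited their detection was not tested.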
